A study of Mus musculus with 13 samples.

Results

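The pluripotency network genes described here are 37 mouse genes fixed by name, of 21938 protein coding genes in the annotation. They comprise 12 core transcription factors, 5 other nuclear regulators, 10 markers and RNA binding proteins of pluripotent cells, 6 ligands, antagonists and a co-receptor of the NODAL and FGF pathways, and 4 genes of the LIF and STAT3 pathway. Each gene was given a window made of its annotated span plus 10 kb on each side, and peaks that shared at least 1 bp with the window were counted. All 37 genes were found once in the annotation, with spans from 1.13 to 160.5 kb (median 13.7 kb, against 17.4 kb for all protein coding genes).

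ChIP-seq had been made for OCT4 and SMAD3 from TNG MKOS mouse embryonic fibroblasts (MEFs) on day 3. The MEFs carried a doxycycline (dox)-inducible cassette of c-Myc, Klf4, Oct4 and Sox2 (MKOS) with a constitutive rtTA in the Sp3 locus, and a GFP knock-in that inactivates 1 copy of Nanog. They came from pooled embryos of a mixed genetic background of CD1 and an inbred strain, and no label says which embryos or cultures a replicate came from. All groups, also those without dox, had been infected with a retrovirus for Smad3CA, a constitutively active SMAD3, and were kept in ESC medium with LIF. OCT4 was precipitated from cells given dox at 1 µg/ml (Dox+, n = 3) per the labels, and SMAD3 from Dox+ cells (n = 3) and from cells without dox (Dox-, n = 3), with 2 inputs per condition. The general methods of the study name a lower dox dose for reprogramming, and which was used here is uncertain. No sample lacked Smad3CA, so its binding cannot be told apart from that of the cells' own SMAD3, and OCT4 was not measured without dox. Exon sequence of Pou5f1 (which encodes OCT4) and Sox2 is also present in the cassette, so reads from that sequence can come from either copy. Whether the cassette holds these exons in full is not stated.

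In pluripotent cells OCT4 and SOX2 bind DNA together at composite motifs in the enhancers of the genes that keep the cells undifferentiated, their own among them. SMAD3 is the nuclear effector of TGF-β, activin and NODAL signaling, binds DNA weakly by itself and is found largely where other transcription factors sit. Fibroblasts keep most of these genes silent, and the factors of the cassette have to reach them in closed chromatin before the network is rebuilt.

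Replicate lists were very unequal. The OCT4 lists held 1181, 1115 and 102 distinct regions for replicates 1, 2 and 3, the Dox+ SMAD3 lists 420, 23981 and 10374 peaks, and the Dox- SMAD3 lists 1656, 18588 and 4038 peaks, with 2022, 12576 and 11512 in the lists made from merged replicates. The depth of each library is unknown here. Fold enrichments of OCT4 peaks went together between lists, with a Spearman's rho of 0.58, 0.69 and 0.61 between each replicate and the merged list (960, 961 and 92 overlapping regions that share reads). Between lists that share no ChIP reads it was 0.30 for replicates 1 and 2 (507 regions) and 0.53 for replicates 2 and 3 (62 regions). Those of the SMAD3 broad peaks went together less, with 0.05 for Dox+ replicates 2 and 3 (9043 peaks). The correlation with the merged list was 0.06 for Dox+ replicate 2 (12137 peaks) and 0.07 for Dox- replicate 2 (10800 peaks), and -0.02 with the pooled coverage at the 504 OCT4 regions that a Dox+ peak overlapped, while peak widths gave 0.69 and 0.68. The cause was not tested. Fold enrichments and q-values are therefore given for OCT4 only, and SMAD3 peaks are described by presence, position, pooled coverage and the authors' group means. Many listed SMAD3 peaks had a −log10 q-value below 1, the level of the broad cutoff. They made up 77.4%, 27.5% and 35.5% of Dox+ replicates 1, 2 and 3 and 15.4% of the merged list. For Dox- it was 64.1%, 37.6% and 71.1%, and 21.5%. Presence thus means that a peak was listed, not that its q-value passed the cutoff.

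OCT4 was found near 5 of the 37 genes (13.5%). These were Rif1, which encodes a regulator of replication timing and DNA break repair, Pou5f1 itself, Gdf3 and Lefty2, which encode a NODAL-type ligand and an antagonist of NODAL, and Tfcp2l1, a transcription factor of the naive state. Of all protein coding genes, 4.85% had a peak of the merged OCT4 list in the same kind of window, and 3.52% when genes were weighted to the span classes of the 37. By replicate list, 4 members had a peak in replicate 1 (2.89% of genes), 3 in replicate 2 (2.87%) and 1 in replicate 3 (0.337%). A peak in at least 2 of the 3 lists was found for 3 members, Pou5f1, Rif1 and Lefty2, against 1.51% of genes. Without replicate 1 (0.232% of genes) or replicate 2 (0.246%) it was found for 1 member, Rif1, so the counts of members and of all genes fell together. The share of members was thus above that of all genes in each OCT4 list, by 4.86-fold ± 2.77 (SD, n = 3 lists). The ratio of 8.01 in replicate 3 rested on Rif1 alone. With so few members, chosen with earlier results of these data known, the share is given as a description, with no test.

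The 5 regions all lay outside the exons of these genes, and no OCT4 peak in any list fell wholly within a Pou5f1 or Sox2 exon. Only the Rif1 region lay within 1 kb of one of the gene's own transcript starts, which 0.428% of genes had. The sequences from 100 bp before to 100 bp after each OCT4 summit are shown for these 5, the regions of the merged list that lay in the windows. They are given 5′ to 3′ on the plus strand of GRCm38 (mm10), and capitals mark matches on either strand to the core of the composite OCT-SOX motif (TTGTNATGC) or to a KLF motif (GGGNGTGG).
Rif1, chr2:52072164-52072364: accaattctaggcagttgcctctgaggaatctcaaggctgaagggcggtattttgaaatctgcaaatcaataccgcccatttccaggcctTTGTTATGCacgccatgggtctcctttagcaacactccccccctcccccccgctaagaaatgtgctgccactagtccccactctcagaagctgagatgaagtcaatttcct
Pou5f1, chr17:35503961-35504161: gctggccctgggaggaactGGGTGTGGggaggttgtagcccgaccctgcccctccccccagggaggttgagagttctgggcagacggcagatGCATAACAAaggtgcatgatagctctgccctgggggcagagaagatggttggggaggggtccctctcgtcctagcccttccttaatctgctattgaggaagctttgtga
Gdf3, chr6:122608514-122608714: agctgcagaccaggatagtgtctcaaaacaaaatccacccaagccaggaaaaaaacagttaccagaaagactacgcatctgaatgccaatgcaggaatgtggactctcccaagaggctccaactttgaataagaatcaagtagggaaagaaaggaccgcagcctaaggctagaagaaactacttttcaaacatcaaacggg
Lefty2, chr1:180888729-180888929: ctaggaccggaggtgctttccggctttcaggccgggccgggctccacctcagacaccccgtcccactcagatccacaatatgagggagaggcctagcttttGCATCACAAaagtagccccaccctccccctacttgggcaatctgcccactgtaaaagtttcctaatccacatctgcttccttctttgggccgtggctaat
Tfcp2l1, chr1:118648099-118648299: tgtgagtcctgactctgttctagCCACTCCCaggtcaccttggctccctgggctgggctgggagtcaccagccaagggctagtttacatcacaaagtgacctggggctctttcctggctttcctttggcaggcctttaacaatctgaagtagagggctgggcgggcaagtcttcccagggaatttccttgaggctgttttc

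The OCT-SOX core was present in 3 of these 5 windows, at Rif1, Pou5f1 and Lefty2, and in 10.8% of the 2022 OCT4 regions of the merged list at the same window length. Its center lay 6 bp or less from the summit in all 3, at -6, -4 and 5 bp. The same 3 genes had their OCT4 region in 2 or more of the replicate lists. The KLF motif was found at Pou5f1 and Tfcp2l1 (13.6% of all regions). The octamer ATGCAAAT (6.63% of all regions), the AP-1 motif TGANTCA (10.2%) and the palindromic SMAD box GTCTAGAC (0.0989%) had no match in the 5 windows. The short SMAD element GTCT was in all 5, and in 76.7% of all regions.

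Rif1 had the strongest OCT4 region of the 5. It was called in all 3 replicate lists, with a fold enrichment over input of 12.8, 16.9 and 15.6, and of 16.4 in the merged list (−log10 q-value 49.4). In the merged list 99.6% of OCT4 regions had a lower fold. The region spanned chr2:52072022-52072408, ending 424 bp upstream of the Rif1 start. SMAD3 peaks covered it in Dox+ replicates 2 and 3 and in the merged Dox+ list. The Dox- replicate 2 list also had a peak at this promoter, at chr2:52072763-52073016, which lay over the Rif1 start and did not reach the OCT4 region.

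At Pou5f1 the OCT4 region (chr17:35503902-35504221) was centered at -1.96 kb from the start, in the stretch of upstream sequence that holds the distal enhancer of the gene, and not in sequence carried by the cassette. Its fold enrichment was 11.1 in replicate 1, 9.59 in replicate 2 and 10.6 in the merged list, and replicate 3 had no peak there. A SMAD3 peak overlapped it in Dox+ replicate 2 and in the merged Dox+ list. The Dox+ replicate 3 list had its peaks 8.82 and 10.9 kb downstream of the start, the latter at the Cchcr1 and Tcf19 promoters, and not at the OCT4 region. No Dox- list had a SMAD3 peak in the Pou5f1 window, and the nearest one of the merged Dox- list was over 100 kb from the start.

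At Gdf3 the OCT4 region (chr6:122608493-122608698) was intronic, centered 1.49 kb inside the gene. It was called in replicate 1 (8.81-fold) and in the merged list (9.29-fold) only. SMAD3 peaks overlapped it in Dox+ replicates 2 and 3 and the merged Dox+ list. The SMAD3 peaks of the Gdf3 window without dox lay elsewhere, centered 7.69 kb from the Gdf3 start at the Apobec1 promoter.

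Upstream of Lefty2, the OCT4 region (chr1:180888661-180888974) was centered at -4.29 kb from the start. It had a fold enrichment of 8.67 in replicate 1, 5.84 in replicate 2 and 6.89 in the merged list. SMAD3 peaks overlapped it in Dox+ replicates 2 and 3, and here also in Dox- replicate 2, while the merged Dox- list had none at this place. Lefty1 and Lefty2 are close copies of each other, and reads of low mapping quality had been removed, so the absence of a peak at either is uncertain. The weakest region, in an intron of Tfcp2l1 (chr1:118648115-118648294), was 20.3 kb into the gene, had a 6.42-fold enrichment in the merged list and was in none of the replicate lists, and no SMAD3 peak covered it.

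**Figure D1:**
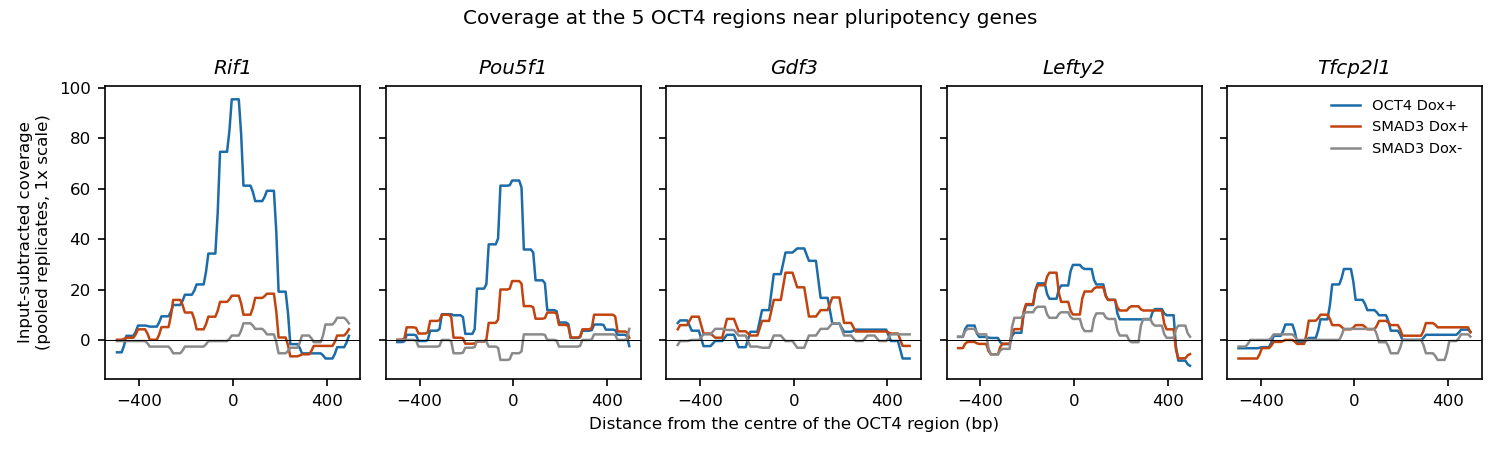
Coverage of pooled ChIP minus pooled input (vertical axis, each scaled to a mean genome coverage of 1) within 500 bp of the centers of the 5 OCT4 regions near pluripotency genes, in bins of 10 bp, with a line for OCT4 Dox+, SMAD3 Dox+ and SMAD3 Dox-. The highest SMAD3 Dox+ bin is 18.35 at Rif1, 23.36 at Pou5f1, 26.69 at Gdf3 and at Lefty2, and 10.01 at Tfcp2l1, and the highest SMAD3 Dox- bin is 8.78, 4.39, 6.59, 13.17 and 4.39.

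SMAD3 was therefore listed at 4 of the 5 member OCT4 regions in the merged Dox+ list, and at none of them in the merged Dox- list. Among all 2022 OCT4 regions, 24.9% were overlapped by a merged Dox+ SMAD3 peak and 1.04% by a merged Dox- peak, so that none of 5 is near the share of all regions. Counted by gene, 1.52% of protein coding genes had an OCT4 region with SMAD3 in their window. Mean input-subtracted coverage over the central 200 bp came from pooled replicates and thus has no error. For OCT4 it was 67.9 at Rif1, 48.8 at Pou5f1, 31.6 at Gdf3, 24.5 at Lefty2 and 19.2 at Tfcp2l1 (median of all regions 21.6). For SMAD3 Dox+ it was 13.5, 16.0, 18.1, 17.3 and 5.08 at the same genes (median of all regions 7.24). For SMAD3 Dox- it was 2.20, -3.16, -0.139, 8.04 and 3.27 (median of all regions 0.047). SMAD3 coverage was higher with dox than without it at all 5 regions, least so at Tfcp2l1. The mean difference over the 5 was 11.95, and 5.47 when 1000 bp were averaged. Over all 2022 regions the mean coverage was 8.11 with dox and 0.230 without it, so the direction was not particular to the members. The share of all regions with higher coverage with dox was not counted. OCT4 regions were called against the Dox+ input, which is also subtracted from SMAD3 Dox+ coverage, while SMAD3 Dox- coverage has another input. How far this adds to the difference was not tested. The 5 member regions ranked differently by OCT4 and by SMAD3. Rif1 was above 99.7% of all regions for OCT4 and above 85.7% for SMAD3 Dox+, whereas Gdf3 was above 89.0% for OCT4 and above 94.9% for SMAD3 Dox+. Lefty2 stood out by its Dox- coverage, which was above 98.9% of all OCT4 regions.

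Distances beyond the 10 kb windows were compared as well. The median distance from the gene start to the nearest merged OCT4 region was 272 kb for the members (0.424 to 5394 kb) and 581 kb for all protein coding genes. Within 100 kb there was a region for 12 members (32.4%), against 11.3% of all genes. The 12 members shared 9 regions, since the Gdf3 region was also the nearest to Dppa3 (17.7 kb) and Nanog (98.8 kb) and the Lefty2 region the nearest to Lefty1 (46.0 kb), and 5 of the 9 were in at least 2 replicate lists. The others were 23.6 kb from Il6st and 33.5 kb from Lifr, the signaling chain and the ligand-binding chain of the LIF receptor, 51.9 kb from Sall1, a zinc finger repressor, and 54.5 kb from Klf5. Several central genes of the network were far from any region, with 671 kb for Klf2, 754 kb for Sox2, 1023 kb for Stat3 and 1795 kb for Tbx3.

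**Figure D2:**
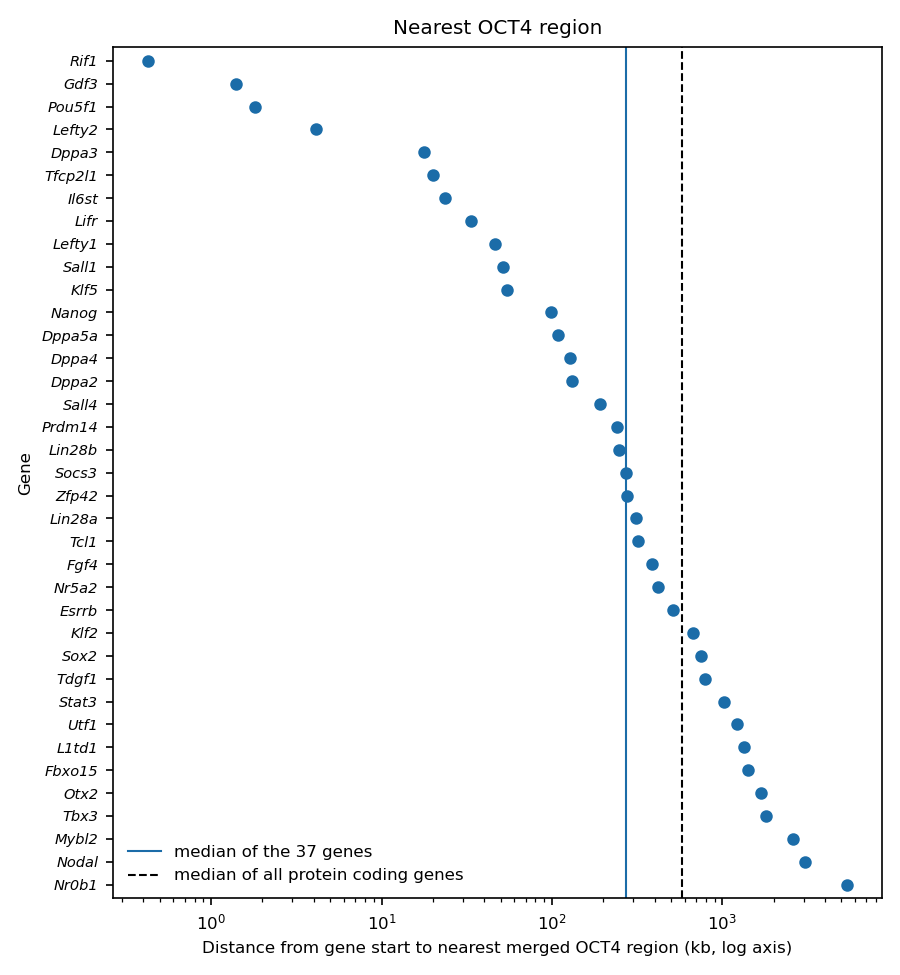
Distance from the start of each of the 37 genes to the nearest region of the merged OCT4 list (horizontal log axis, kb), ordered from near to far, with the median of the 37 genes (solid line, 272 kb) and of all protein coding genes (dashed line, 581 kb). 4 genes, Rif1, Gdf3, Pou5f1 and Lefty2, lie under 5 kb.

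SMAD3 peaks were more common than OCT4 peaks, and were found at these genes in shares near or below those of all protein coding genes. In the merged Dox+ list 20 members (54.1%) had a peak in their window, against 52.5% of all genes, and in the merged Dox- list 15 (40.5%), against 48% of all genes. By replicate list, 0, 23 and 14 members had a Dox+ peak in replicates 1, 2 and 3, against 2.57%, 63% and 47% of genes. For Dox- the counts were 4, 17 and 6, against 10.8%, 56.3% and 22.2% of genes. A peak in at least 2 replicate lists was found at 14 members for Dox+ (46.5% of genes) and at 7 members for Dox- (24.8% of genes). The Dox+ count was 0 without replicate 2 (2.47% of genes) or replicate 3 (2.56%). The Dox- count was 1 without replicate 2 (7.45% of genes), and 4 without replicate 1 (21.5%) or replicate 3 (10.7%), so the counts of members and of all genes fell together. The share of members divided by the share of all genes was 0.597 ± 0.525 (SD, n = 3 lists) for Dox+ and 0.848 ± 0.136 for Dox-, and 0.896 for Dox+ without replicate 1, the short list in which no member had a peak. Set against all annotated genes, noncoding ones included, the ratios were 0.996 for Dox+ and 1.45 for Dox-, so the side of 1 on which Dox- lies depends on the background. The ratios of the groups differed by less than the spread between Dox+ lists.

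**Figure D3:**
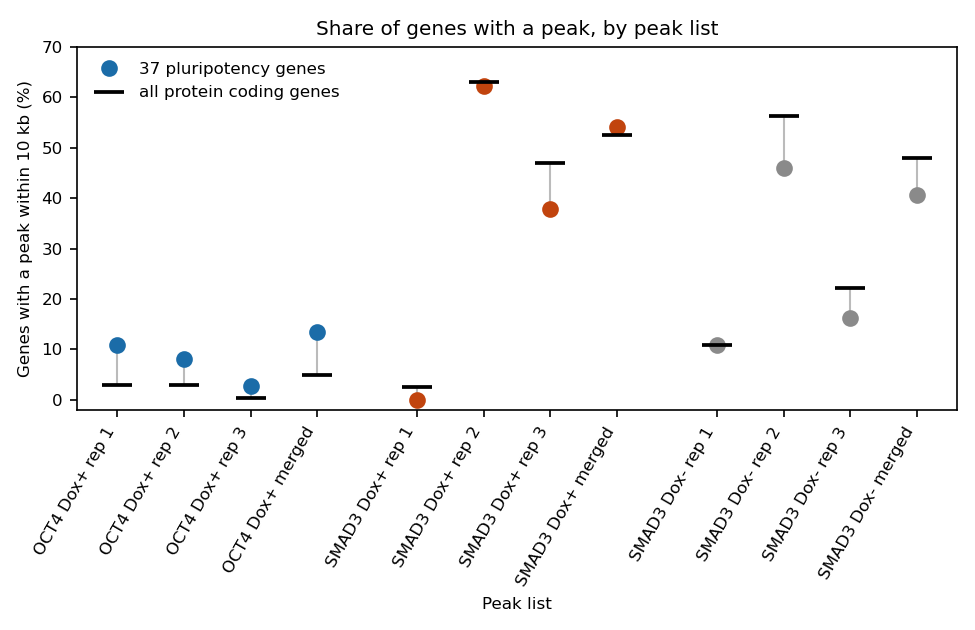
Percent of genes with a peak within 10 kb (vertical axis) in each of the 12 peak lists, for the 37 pluripotency genes (points) and for all protein coding genes (black bars). The points lie above the bars in the 4 OCT4 lists, and at or under them in the replicate SMAD3 lists.

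Of the 26 merged Dox+ SMAD3 peaks in the windows, 12 lay within 1 kb of a transcript start of the member, 5 at the start of a neighboring protein coding gene and 9 at neither. Of the 19 merged Dox- peaks, 9 lay at a member's start, 4 at a neighbor's and 6 at neither. A merged peak at its own start was found for 12 members in Dox+ (42.5% of genes) and for 9 members in Dox- (37.8% of genes). The neighbors included Atp9a at Sall4, Dhdds at Lin28a, Tmem63a at Lefty1, Apobec1 at Gdf3, and Cchcr1 and Tcf19 at Pou5f1. A peak counted for these members may thus belong to another promoter.

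**Figure D4:**
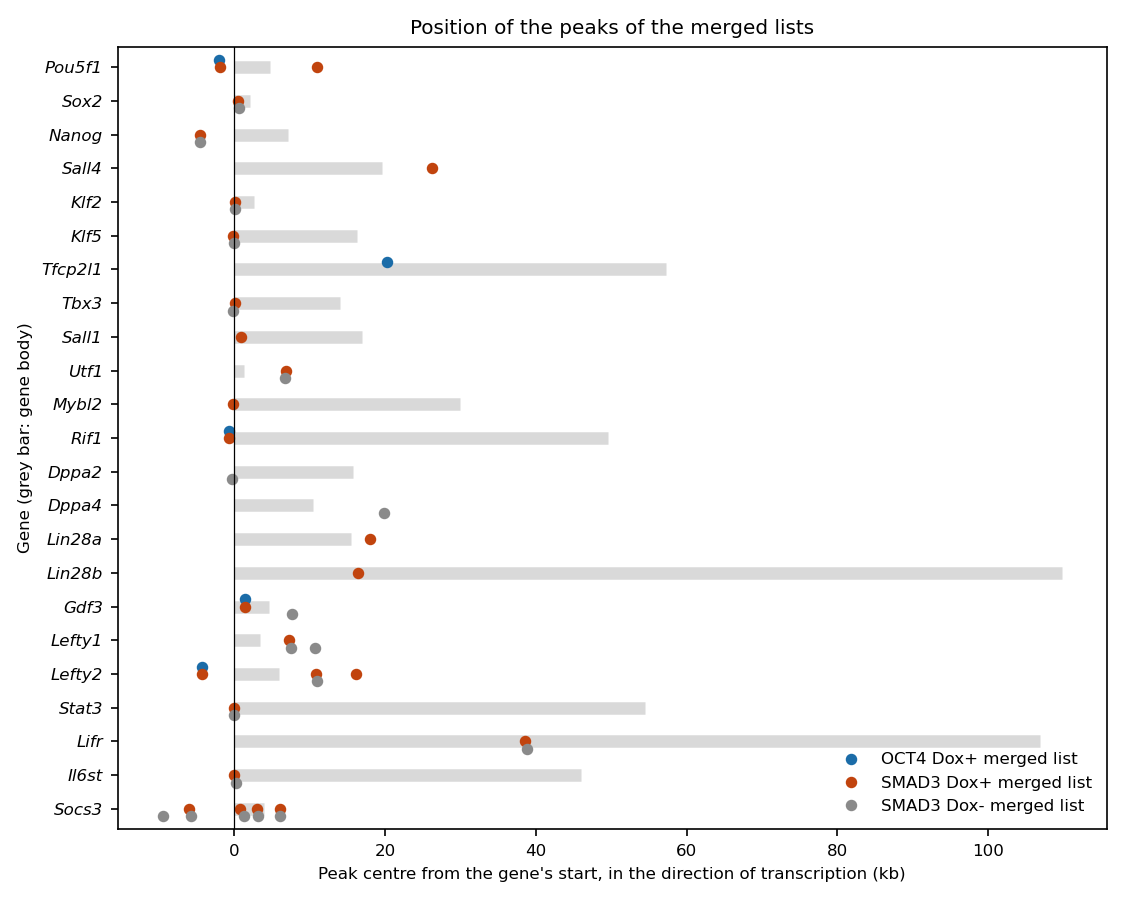
Centers of the merged-list peaks of OCT4 Dox+, SMAD3 Dox+ and SMAD3 Dox- (colored points) relative to the start of each of the 23 members with such a peak, in the direction of transcription (horizontal axis, kb), with the gene body as a grey bar. Of the distinct SMAD3 peaks, 12 of 26 with dox and 9 of 19 without it lie within 1 kb of an own transcript start. Those of Lin28b and Lifr are at internal starts. OCT4 points lie upstream of or inside the genes.

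Among the core transcription factors, 7 of 12 had a merged Dox+ SMAD3 peak and 5 had a merged Dox- peak, near the 52.5% and 48% of all genes. Sox2 had a peak in Dox+ replicates 2 and 3 and in Dox- replicate 2, and every one of them lay wholly in its single exon. The cassette also carries sequence of this exon, and how much of each peak it covers is not known here. Nanog, the gene of the pluripotency homeobox factor, had an upstream peak centered at -4.57 kb in the merged Dox+ list. It was called in Dox+ replicates 2 and 3 (chr6:122702489-122703314 and chr6:122702675-122702870) and, at the same place, in Dox- replicate 2, and this stretch lies upstream of the start codon at which GFP was inserted. Klf2 had a promoter peak in Dox+ replicates 2 and 3 and in Dox- replicates 2 and 3. Tbx3 had promoter peaks in Dox+ replicates 2 and 3 and in Dox- replicate 2, and Klf5 in replicate 2 of each condition. Sall4 and Tfcp2l1 had a SMAD3 peak in Dox+ replicate 2 alone, and Nr5a2 and Prdm14 in Dox- replicate 3 alone. Esrrb and Nr0b1, which encode orphan nuclear receptors, had none in any list.

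Of the other nuclear regulators, Rif1 was the only one of 5 with Dox+ SMAD3 peaks in at least 2 replicate lists. Sall1 had a promoter peak in Dox+ replicate 2 only, Utf1 and Mybl2 had peaks in replicate 2 of both conditions, and Otx2 had no peak. Among the 10 markers and RNA binding proteins, most had no SMAD3 peak or a peak in a single replicate list. The exceptions were Lin28b, an RNA binding protein that blocks let-7 maturation, and the neighbors Dppa2 and Dppa4, which encode small DNA binding proteins of early embryos. Lin28b had a SMAD3 peak in Dox+ replicates 2 and 3 at an internal transcript start 16.4 kb into the gene, and none without dox. Dppa2 and Dppa4 share 10330 bp of their windows and a single SMAD3 peak just upstream of the Dppa2 start, which was listed in Dox- replicates 2 and 3 and in no Dox+ list.

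The 4 LIF and STAT3 pathway genes, which are active in fibroblasts too, all had SMAD3 peaks in Dox+ replicates 2 and 3, in a class that held 46.5% of all genes. Stat3, the transcription factor of the pathway, and Lifr also had a peak in Dox- replicates 1 and 2. The Lifr peaks of all lists lay at an internal transcript start, in the merged Dox+ list 38.6 kb from the first. Il6st had Dox- peaks in replicate 2 only. Socs3, the feedback inhibitor of STAT3 signaling, was the only member with peaks in all 3 Dox- lists (7.43% of genes), and had the most merged peaks, 4 with dox and 5 without it. Among the NODAL and FGF genes, Lefty1, Lefty2 and Gdf3 had Dox+ peaks in replicates 2 and 3, and the ligand genes Nodal and Fgf4 and the co-receptor gene Tdgf1 had no peak in any list.

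**Figure D5:**
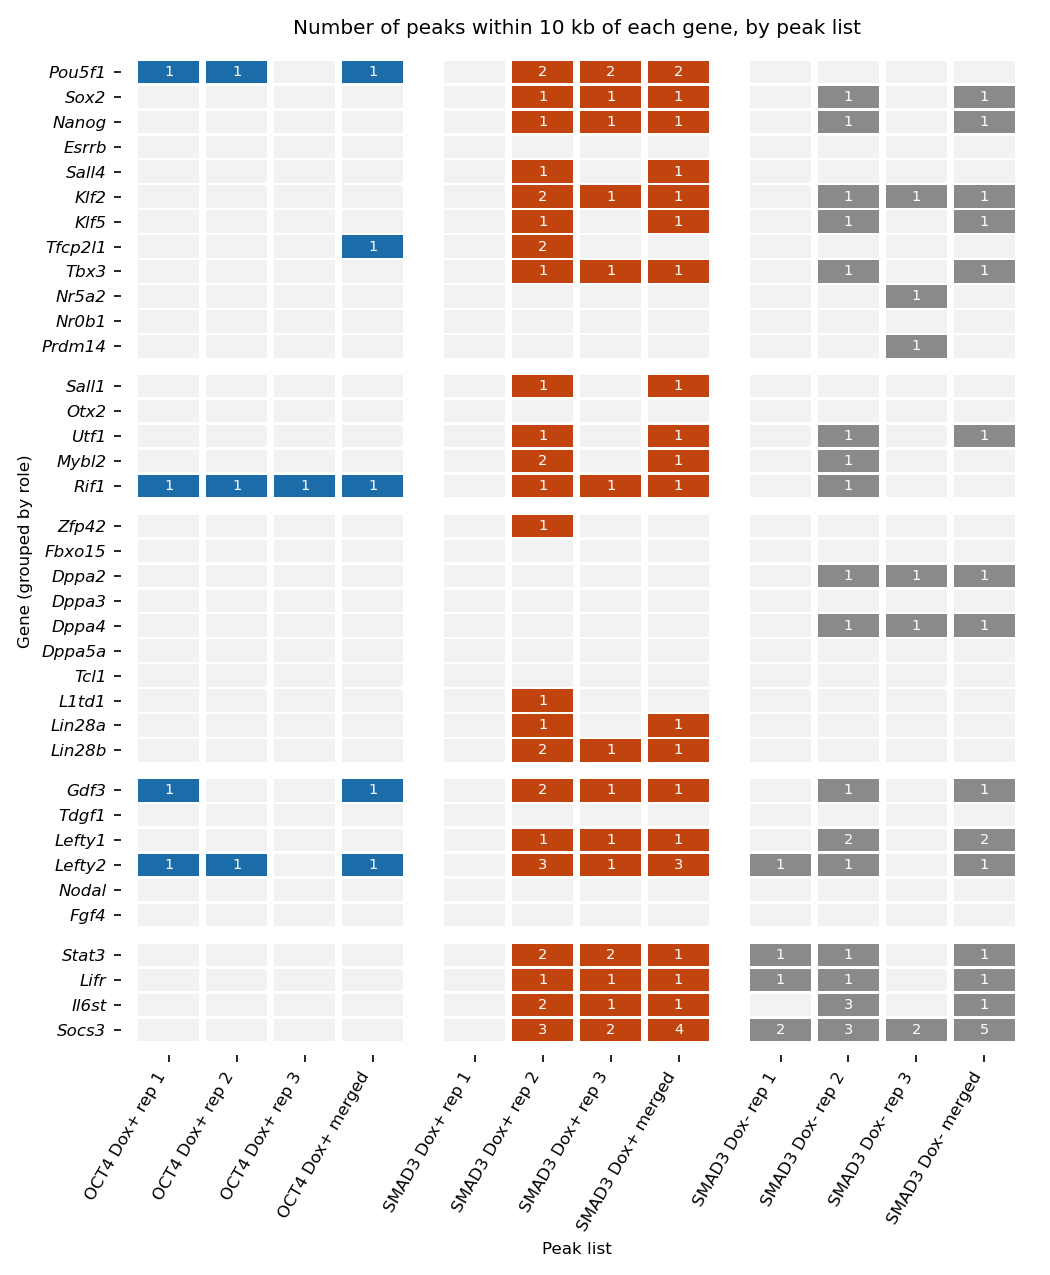
Number of peaks within 10 kb of each of the 37 genes (rows, grouped by role) in the 12 peak lists (columns). Colored cells hold at least 1 peak and the grey ones none. SMAD3 Dox+ replicate 1 has no peak at any of these genes, and 10 genes have none in any list. The share of all genes with none in any list was not computed.

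A SMAD3 peak in at least 2 Dox+ lists and in no Dox- list was found for 2 members, Pou5f1 and Lin28b (3.33% of all genes). The opposite pattern was found for Dppa2 and Dppa4, through their shared peak (0.356% of all genes). The Pou5f1 call used the replicate 3 peaks downstream of the gene, since its OCT4 region had SMAD3 in replicate 2 alone. The first count rested on single libraries, since it was 9 members, against 23.9% of all genes, without Dox- replicate 2, and 0 without Dox+ replicate 2 (0.0729% of genes) or replicate 3 (0.0957%). The second was 0 without Dox- replicate 2 (0% of genes) or replicate 3 (0.00912%). Without Dox+ replicate 2, the longest list, it stayed at 2 members while the share of all genes was 2.44%. Of the sites that the authors listed as different between the conditions, 4 lay in the windows. The site at the Rif1 start had an authors' mean log2 concentration of 4.08 with dox and 1.97 without it, the intronic Gdf3 site 3.70 and 1.01, and the internal start of Lin28b 3.60 and 1.63. At the shared Dppa2 and Dppa4 site the authors' mean was 0.197 with dox and 2.65 without it. Sites with the higher mean in Dox+ were in the windows of 3 members, against 6.64% of all genes, and with the higher mean in Dox- of 2 members, against 3.85%. In the authors' comparison of OCT4 with SMAD3, both with dox, the sites that held 4 of the OCT4 regions were listed with the higher mean for OCT4, as were 50% of all OCT4 regions. Such sites were in the windows of 4.17% of all genes. The authors' mean log2 concentrations were 6.59 for OCT4 and 3.23 for SMAD3 at Rif1, 5.62 and 2.01 at Pou5f1, 5.09 and 2.85 at Gdf3, and 5.13 and 2.86 at Lefty2. The SMAD3 means at Rif1 and Gdf3 differ here from those given above with dox, so means cannot be compared between the authors' comparisons. OCT4 and SMAD3 means also come from different antibodies and do not measure relative occupancy. Sites at Tbx3, Lifr, Il6st and near Lefty1 had the higher mean for SMAD3, which 5.15% of all genes had. The sites at Rif1 and Gdf3 that differed with dox held the OCT4 regions described above, and those at Lin28b and Dppa2 overlapped none.

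The study had also designed amplicons for SMAD3 ChIP-qPCR at loci of pluripotency genes known from ESCs, for use at a later day of reprogramming. By that assay it reported SMAD3 binding near pluripotency genes on the later day. The absence of a day 3 peak thus does not show that a locus is unbound. All 10 SMAD3 primer pairs and the 2 control pairs matched the genome at 1 place each. Only 2 of the 10 SMAD3 amplicons, at Pou5f1 and Gdf3, overlapped a day 3 peak of any list, and neither control amplicon did. Both overlapped the OCT4 and SMAD3 Dox+ peaks of the merged lists and no Dox- peak. The sequences of 4 amplicons are shown, on the plus strand of GRCm38, to set those with a day 3 peak beside 2 that carry an OCT motif without one. Capitals mark the OCT-SOX core or the octamer.
Pou5f1 amplicon, chr17:35504022-35504134: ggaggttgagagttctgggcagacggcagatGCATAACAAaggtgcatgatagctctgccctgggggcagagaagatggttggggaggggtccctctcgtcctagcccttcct
Gdf3 amplicon, chr6:122608464-122608605: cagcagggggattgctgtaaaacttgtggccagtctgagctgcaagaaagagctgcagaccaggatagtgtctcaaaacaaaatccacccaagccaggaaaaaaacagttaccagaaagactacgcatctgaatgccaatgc
Sox2 amplicon, chr3:34653984-34654113: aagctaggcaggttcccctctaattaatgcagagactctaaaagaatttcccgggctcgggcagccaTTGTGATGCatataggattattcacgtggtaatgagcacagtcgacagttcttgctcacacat
Zfp42 amplicon, chr8:43307132-43307219: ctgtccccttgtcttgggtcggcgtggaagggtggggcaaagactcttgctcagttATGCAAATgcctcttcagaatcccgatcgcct

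The Pou5f1 amplicon holds the same OCT-SOX core as the OCT4 region shown above. The Sox2 amplicon, 3.64 kb downstream of the Sox2 start, also holds an OCT-SOX core, but the nearest merged OCT4 region was 758 kb away and the nearest Dox+ SMAD3 peak, the exonic one, 2.75 kb. The Zfp42 amplicon, at the promoter of the gene for the ESC marker REX1, holds an octamer, and the nearest merged OCT4 region was 277 kb away. The SMAD3 peak of Dox+ replicate 2 at the Zfp42 start (chr8:43306880-43307092) ended just short of this amplicon, which begins at chr8:43307132. It is therefore not clearly apart from that peak. Within 100 bp of their centers, 2 of the 10 SMAD3 amplicons had an OCT-SOX core and 1 an octamer. The other 6 amplicons without a peak were those of Nanog, Klf2, Sall4, Fbxo15, Jarid2 and Esrrb. The Nanog amplicon was centered at -0.227 kb from the start, 3.98 kb from the Nanog SMAD3 peak described above, and that of Klf2 lay 2.57 kb from the Klf2 promoter peak.

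In all, 10 members had no peak in any of the 12 lists. They were Esrrb, Nr0b1, Otx2, Fbxo15, Dppa3, Dppa5a, Tcl1, Tdgf1, Nodal and Fgf4, and 8 others had a peak in a single replicate list. The shares of all genes with these 2 patterns were not computed, so neither count can be called particular to the members. Of 40 other genes associated with pluripotency that were not among the members, 3 had a merged OCT4 peak (Alpl, which encodes the alkaline phosphatase used as a marker of ESCs, the cassette gene Klf4, and Tet2) and 1, Alpl, a peak in at least 2 OCT4 lists. The OCT4 shares of the 40 were 7.5% and 2.5%, against 4.85% and 1.51% of all protein coding genes. A merged SMAD3 peak was near 28 of the 40 with dox (70%, against 52.5% of all genes) and 29 without it (72.5%, against 48%).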

How the data were processed

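OCT4 (n = 3) and SMAD3 ChIP libraries (3 Dox+, 3 Dox-) and 4 inputs were grouped as in the labels. Per the study's methods and processing notes, the authors trimmed reads (Trimmomatic 0.36), aligned them to mm10 with Bowtie 2, removed duplicates (Picard 2.3.0), reads with a mapping quality under 40 and blacklisted reads, and called peaks with MACS2 2.1.0 against merged inputs, as narrow peaks at q 0.01 for OCT4 and as broad peaks with a cutoff of 0.1 for SMAD3, per replicate and on merged replicates. The deposited peak lists give a fold enrichment (ratio to input) and a −log10 q-value per peak. The deposited matrices hold a signed score, merged ChIP coverage minus merged input coverage, both scaled so that the genome average is 1, per 10 bp bin around merged OCT4 peaks. The authors' DiffBind 1.16.3 tables hold log2 group mean concentrations, a fold, a p-value and an FDR for sites passing an FDR of 0.1 and an absolute log2 fold of 1. Only their positions and group means were used, and the gapped-peak lists were not used.

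Genes were taken from the GENCODE vM21 annotation. Regions of equal coordinates were collapsed, and overlap meant 1 bp. No test was made: counts are set beside the share of all protein coding genes, also weighted to the members' 10 span classes. Values per list are given for members with a merged OCT4 peak, a SMAD3 peak in at least 2 lists of a group, or a listed site. The members, gene lists and motifs were chosen with earlier results of these data known. Overlap counts were tested on simulated data. Alternatives were the flank, stricter peaks, peak centers, exonic peaks, each list left out, list length and the gene background. Python 3.11.15, numpy 2.4.6, pandas 2.3.3 and matplotlib 3.10.9 were used.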

Additional observations from a re-analysis of the deposited data

How the results depend on the processing

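No paired analysis was possible because the counts and shares come from no test, and replicate numbers tie no lists together. Of 86 recomputed values, 52 stayed within the limits set for them (a factor of 1.5 for counts, 1 SD for ratios) and 34 did not, and no ratio of SMAD3 Dox+ moved by more than its SD. The cause of these moves was not tested, apart from the smaller or larger window.

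Without a flank, members with a merged peak numbered 2 (OCT4), 12 (SMAD3 Dox+) and 8 (SMAD3 Dox-), against 3.65%, 43.5% and 38.7% of genes. Members with a peak in at least 2 lists then numbered 0, 9 and 4 (1.21%, 36.4% and 17.3% of genes), and 0 had the pattern found only in Dox- (0.319%). With a flank of 50 kb, 11 members had a merged OCT4 peak (8.91% of genes), 6 a peak in at least 2 OCT4 lists (2.71%) and 12 in at least 2 Dox- lists (41.0%). In these wider windows lay 9 listed sites, a count with no share of all genes beside it, so it cannot be called particular to the members. Leaving out a single list gave 1 to 3 members for at least 2 OCT4 lists (0.232% to 1.43% of genes). For SMAD3 it gave 0 to 14 for Dox+ (2.47% to 46.4%) and 1 to 4 for Dox- (7.45% to 21.5%). A SMAD3 peak in Dox+ lists alone was then found for 0 to 9 members (0.0729% to 23.9%), and in Dox- lists alone for 0 to 2 (0% to 2.44%). Ratios of shares then ran from 0.402 to 0.896 for Dox+ and from 0.773 to 0.907 for Dox-.

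Filters on the q-value or fold of SMAD3 peaks rest on values that did not go together between lists, so their results carry little. With a −log10 q-value of at least 2 for SMAD3 and 4 for OCT4, 10 members had a merged Dox+ peak (27.1% of genes) and 3 a merged Dox- peak (21.1%), 2 and 1 a peak in at least 2 lists (9.44% and 1.07%), 1 and 0 a peak in lists of that condition alone (5.07% and 0.196%), and 1 member OCT4 region a SMAD3 peak, while the OCT4 counts of 5 and 3 stayed. The Dox- ratio became 2.80 with this filter and 1.95 with each list reduced to the 420 peaks of highest fold. Against all annotated genes, with no such filter, it became 1.45. Coverage averaged over 1000 bp gave a SMAD3 difference of 5.47 in place of 11.95. List lengths were very unequal and depths are unknown, which limits what the absence of a peak says.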
